A study of Mus musculus with 6 samples.

Results

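The genes described here encode the nuclear subunits of the mitochondrial machinery of oxidative phosphorylation. They were chosen by symbol from the transcript spots of a whole-genome mouse array. The symbols taken were those of the Nduf subunit series (complex I), the 4 Sdh genes (complex II), the Uqcr series (complex III), the numbered Cox series from 4 to 8 (complex IV) and the Atp5 series (complex V). The rule found 74 genes on 81 spots, of 18069 genes named by a spot with a single symbol. By complex these were 30 genes of complex I, 4 of complex II, 8 of complex III, 16 of complex IV and 16 of complex V. A further 6 spots that list several symbols also meet the rule and were not used, and no spot with a single symbol names Ndufa4, Cox6b2 or Cox8c.

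In oxidative phosphorylation, complex I and complex II pass electrons from NADH and succinate to ubiquinone, complex III passes them on to cytochrome c, and complex IV hands them to oxygen. Complexes I, III and IV pump protons across the inner mitochondrial membrane, and complex V, the ATP synthase, uses the returning protons to make ATP. Most of these complexes combine a few catalytic core subunits, some of them encoded by mitochondrial DNA and outside the rule, with many small accessory subunits from the nucleus that assemble and stabilise them. Complex II is the exception: all of its subunits come from nuclear genes, it pumps no protons, and it also serves as an enzyme of the tricarboxylic acid cycle.

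The study compared posterior embryo tissue lacking Fkbp8, a membrane-anchored immunophilin of mitochondria and endoplasmic reticulum, with wild-type tissue at embryonic day 9.5. There were 3 Fkbp8 null samples (6, 9 and 11) and 3 wild-type samples (7, 10 and 12), each on its own 1-colour array, and all 6 came from a mixed C57BL/6 and 129S5/SvEvBrd (B6;129S5) background. The labels give no restriction of the null allele to a cell type, and nothing in the labels says that a sample was a single embryo. The p-values therefore measure the spread between these samples, which may in part be technical. The embryos had on average 21.6 pairs of somites, and the caudal part, cut below the forelimb pit, was taken. By its tissue label each sample is posterior neural tube, whereas the source name has the anterior one.

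The labels give no RNA quality per sample, so the arrays are compared by signal only. Between 63.3% and 69.2% of the transcript spots were above the near-background flag. Relative to the negative controls the median spot was 2.34, 3.45 and 3.16 times as bright in null samples 6, 9 and 11. In wild-type samples 7, 10 and 12 it was 2.33, 2.58 and 3.80 times as bright. The targeted gene followed its label: all 3 null arrays read Fkbp8 as near background and all 3 wild-type arrays read it above, so it was at least 3.33-fold lower (fitted log2 difference -1.77 ± 0.23, SE, n = 3 in each group here and below; limma adjusted p = 0.409). All 6 neural tube markers and all 10 somite markers on the array could be tested, so the tissue held more than neural tube. Of the 8 heart markers on the array 3 could be tested, and 2, Myh6 and Tnnt2, were near background on every array. In bulk tissue of this kind, fewer cells with a transcript and less of it per cell cannot be told apart. Sex-linked genes set apart a single array: the brightest Xist spot read 10.34 in wild-type sample 10 and 5.98 to 6.53 elsewhere, and Eif2s3y read 6.16 there and 8.63 to 8.91 on the other 5.

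Of the 74 genes, 71 were bright enough to be tested, which means above near-background on all arrays of at least 1 group. The 3 others are dim. Uqcrq, a small subunit of complex III, was above background on 2 null arrays and no wild-type array. Cox7b2, a complex IV isoform, was above background on none, and Cox8b, the complex IV isoform of heart and skeletal muscle, on 2 arrays of each group. Of the 71, all but Cox7a1 passed the background flag on every array where their spot was usable, so the filter did not depend on 1 genotype for the rest.

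No oxidative phosphorylation gene passed the test between genotypes. The smallest limma adjusted p, over all 21243 probes tested, was 0.9999, against a background of 0.00471% of probes past 0.05. In direction, however, the genes were uneven: 56 of the 71 had a negative log2 difference (null minus wild type) and 15 a positive one, where 49.2% of all probes tested were negative. Their median log2 difference was -0.16 (quartiles -0.28 and -0.01), beside 0.0025 for all probes and 0.02 for the brightest 25% of probes. At an unadjusted p under 0.05 there were 4 genes on the lower side, Ndufa1, Ndufa11, Uqcr11 and Cox6c, which is 5.63% of the 71 where 1.33% of probes were called, and 0 on the higher side where 1.76% were. The null values lay wholly below the wild-type values for 10 genes, 14.1% of the 71 against 4.33% of probes, and wholly above for 0 genes against 4.92%. Of the 10, Uqcr10 was compared without wild-type sample 12, whose spot was not usable. Cytosolic ribosomal protein genes, a list added after the values were seen, leaned the same way: 36 of 49 were lower, with a median of -0.09. Of them 3 (6.12%) were at an unadjusted p under 0.05 on the lower side and 0 on the higher side. Their groups did not overlap for 3 lower genes (6.12%) and 1 higher gene. With 3 samples a group an exact permutation test cannot go below p = 0.1.

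Markers of some cell types lay on the same side. All 8 surface ectoderm markers tested were lower, with a median log2 difference of -0.28. Of them 3 were at an unadjusted p under 0.05 and 4 were without overlap, beside 1.33% and 4.33% of all probes. Relative to the average of the arrays these markers averaged -0.19 to 0.0041 on the null arrays and -0.02 to 0.32 on the wild-type ones. Of the 6 neural tube markers 5 were lower, with a median of -0.18, and averaged -0.29 to 0.09 in null and -0.04 to 0.32 in wild type. On the lower side 2 of these 6 were at an unadjusted p under 0.05 and 3 were without overlap. Pax6, a neural tube transcription factor, was at -0.76 ± 0.25 (unadjusted p = 0.0158). Primitive erythroid markers were lower in 6 of 7 (median -0.09) and heart markers in 2 of 3 (-0.12). Medians were positive for somite (0.18, 4 of 10 lower) and endothelial markers (0.13, 1 of 5). They were also positive for gut and yolk sac (0.06, 2 of 6) and skeletal muscle markers (0.38, 0 of 2). The part of these cell types in the lean of the oxidative phosphorylation genes was not tested.

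Null sample 9 stood apart in this lean. It had the lowest signal of the 6 arrays for 35 of 69 genes measured on all of them, 50.7%, beside 13.9% of all genes. Averaged over these 69 genes and set relative to the average of the arrays, null samples 6, 9 and 11 were at -0.04, -0.21 and 0.03, and wild-type samples 7, 10 and 12 at 0.03, 0.12 and 0.07. The group means were -0.07 ± 0.12 for null and 0.07 ± 0.05 for wild type (SD, n = 3 each), and null sample 11 lay level with wild-type sample 7. Without sample 9 there were still 55 of 71 genes on the lower side, and their median log2 difference was -0.07. Without wild-type sample 10, which had the highest signal for 25 of the 69 genes, 45 of 70 were lower with a median of -0.08. Tissue markers set that array apart as well: relative to the average of the arrays, the somite list was at -0.67 there against 0.02 to 0.30 elsewhere, the neural tube list at 0.32 and the primitive erythroid list at 0.66, the highest of the 6 arrays for each. Foxc2, a somite transcription factor, read 9.48 there and 11.12 to 11.57 on the others. The part of these in the values of sample 10 was not tested.

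**Figure D1:**
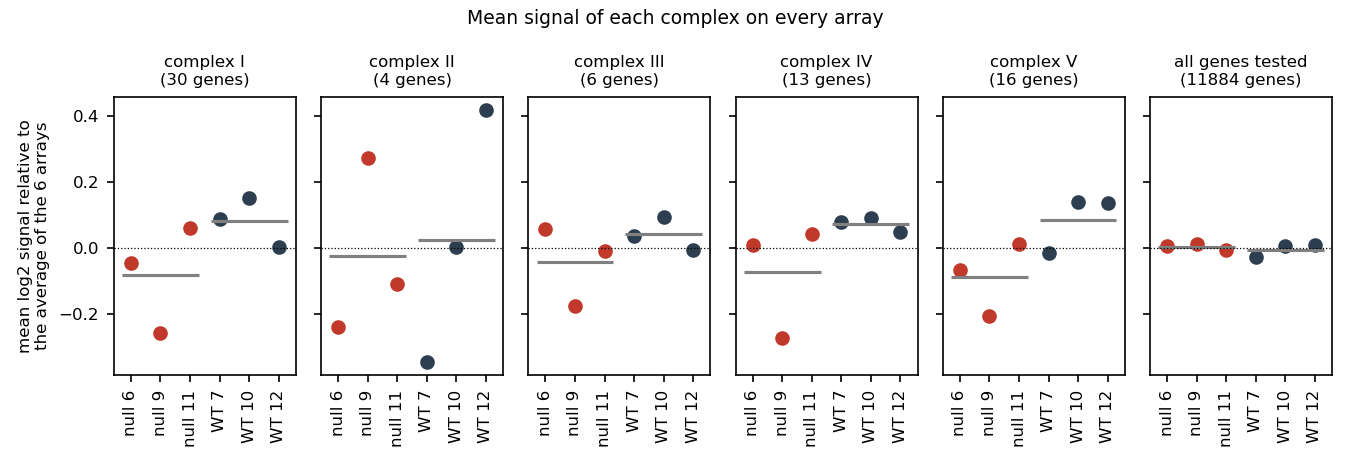
Mean log2 signal of each complex on every array, relative to the average of the 6 arrays (points, null in red and wild type in dark blue; grey bars, group means), for the genes measured on all arrays. Null sample 9 is the lowest array for complexes I, III, IV and V and the second highest for complex II, while all genes tested stay within 0.03 of 0.

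The complexes did not share a single pattern. The median log2 difference was -0.14 for complex I (26 of 30 genes lower), -0.21 for complex IV (12 of 14 lower), -0.19 for complex V (12 of 16 lower) and -0.10 for complex III (4 of 7 lower). Complex II stood at -0.01, with 2 of its 4 genes lower. Neither of the last 2 medians had a stable sign: leaving out a sample took complex II from -0.27 (without sample 7) to 0.16 (without sample 12), and complex III to 0.015 without sample 9 and 0.012 without sample 10. The medians of complexes I, IV and V stayed below 0 throughout. On sample 9 the mean of complex I was -0.26 relative to the average of the arrays, that of complex III -0.18, that of complex IV -0.27 and that of complex V -0.20, whereas complex II was at 0.27. Complex II varied most between arrays of a group, from -0.35 in wild-type sample 7 to 0.42 in wild-type sample 12. Differences between complexes were not tested, since their genes were measured on the same arrays.

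Within complexes, the medians on sample 9 differed by role of the subunit, although the roles overlapped. Among the small accessory subunits of complex I, 10 of 23 were at least 0.5 log2 units below the mean of the other arrays on sample 9, with a median of -0.38. None of the 6 core subunits, which carry the flavin or the iron-sulphur clusters or sit beside them, was, and their median was -0.02. In complex III the accessory subunits had a median of -0.31 and the core and catalytic ones 0.15. There 1 of 4 accessory subunits was at least 0.5 below. Uqcrc1, a core protein, was at -0.17, within the accessory range of -0.86 to -0.03. In complex V the median was -0.43 for the membrane and stalk subunits, of which 3 of 11 were above 0. It was 0.09 for the catalytic F1 head, where Atp5e was at -0.65. The nuclear subunits of complex IV, which surround a core made by mitochondrial DNA, had a median of -0.48 over 10 genes, 5 of them at least 0.5 below. In all, 22 of 71 genes (31%) were at least 0.5 below on sample 9, beside 1.39% of all genes, and 3 were at least 1 below (4.23% beside 0.161%). On the other 5 arrays, 1 or 2 genes of the set were that far below. The grouping by role was made after these values were seen.

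**Figure D2:**
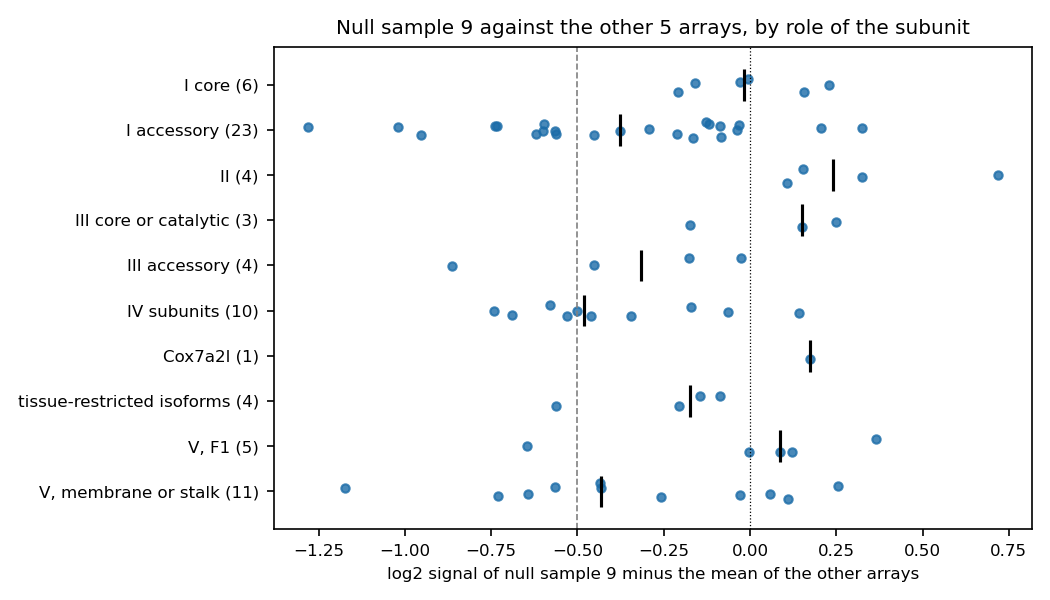
Log2 signal of null sample 9 minus the mean of the other arrays for the 71 genes tested (points; black bars, medians; dashed line, 0.5 below), by role of the subunit, with the number of genes in brackets. Accessory and membrane subunits reach down to -1.28, and the complex I core, complex II and the F1 head lie around or above 0, with Atp5e as the exception in the F1 head.

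Other measurements moved with sample 9. The 48 cytosolic ribosomal protein genes measured on all arrays, a list added after the values were seen, averaged -0.21 there, the same as the oxidative phosphorylation genes, and 18 of them (37.5%) were lowest on that array. The RefSeq genomic span of the 22 genes at least 0.5 below had a median of 6.38 kb, that of the other 49 was 7.99 kb, and that of genes outside the set was 21.0 kb. Outside the set, 5.17% of the 755 genes in both the shortest 25% by span and the brightest 25% by signal were at least 0.5 below on sample 9, beside 1.22% of all 12367. Of the 7 skeletal muscle markers 2 could be tested, and both were highest there: Myf5 read 8.68 against 7.52 to 7.97 elsewhere, and Acta1 7.83 against 6.53 to 6.94. The part of these measures in the pattern of sample 9 was not tested.

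Ndufa1, an accessory subunit needed to assemble the membrane arm of complex I and encoded on the X chromosome, had the smallest p of all 71 genes. Its normalized log2 signal was 11.47, 10.64 and 11.39 in null samples 6, 9 and 11, and 11.76, 11.68 and 11.65 in wild-type samples 7, 10 and 12. All null values lay below all wild-type values, and sample 9 was far below the other 2. The log2 difference was -0.53 ± 0.21 (SE; unadjusted p = 0.0315), and -0.27 without sample 9. Ndufa11, which also belongs to the membrane arm, read 11.48, 11.01 and 11.50 in null and 11.55, 11.82 and 11.70 in wild type. The groups again did not overlap, although samples 11 and 7 differed by little. Its log2 difference was -0.36 ± 0.15 (unadjusted p = 0.0430), and -0.20 without sample 9.

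Ndufa7, another accessory subunit, was at 12.84, 12.62 and 12.81 in null and 13.03, 12.95 and 12.92 in wild type. This was a small but separated difference, at -0.21 ± 0.10 (SE; unadjusted p = 0.0726). Ndufs6, an accessory subunit that binds zinc, was at 12.42, 11.94 and 12.52 in null and 12.56, 12.55 and 12.62 in wild type. Its null samples 6 and 11 lay just below the wild-type values and sample 9 well below them (difference -0.28 ± 0.15, unadjusted p = 0.103, and -0.10 without sample 9). Ndufs8, an iron-sulphur protein, was the core subunit of complex I whose groups did not overlap. It read 11.32, 11.17 and 11.14 in null and 11.76, 11.34 and 11.33 in wild type, a difference of -0.27 ± 0.14 (unadjusted p = 0.0839). Here sample 9 did not stand apart, and wild-type sample 7 was the high value, without which the difference was -0.13.

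The accessory subunits of complex I farthest down on sample 9 were Ndufa3 and Ndufa6. Ndufa3 read 12.98, 11.56 and 12.60 in null and 13.05, 12.88 and 12.68 in wild type, so sample 9 was 1.28 log2 units below the mean of the others. Null sample 11 lay just below the wild-type values and null sample 6 within their range. The Ndufa3 difference of -0.49 ± 0.32 (unadjusted p = 0.160) became -0.08 without sample 9. Ndufa6 varied in both groups, at 8.18, 7.40 and 8.51 in null and 9.30, 7.67 and 8.46 in wild type. Wild-type sample 10 was almost as low as null sample 9, and the difference of -0.45 ± 0.41 was within that spread. It was -0.03 without wild-type sample 7. Ndufb4 was low on sample 9 to a lesser degree, at 11.99, 11.32 and 11.95 in null and 12.22, 12.32 and 11.84 in wild type (difference -0.37 ± 0.20, unadjusted p = 0.0982, and -0.16 without sample 9).

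Ndufa10 and Ndufa9, also accessory subunits, ran the other way. Ndufa10 had the highest positive difference of complex I, with 11.75, 12.03 and 11.70 in null and 11.60, 11.67 and 11.80 in wild type (0.13 ± 0.12, and 0.03 without sample 9). Ndufa9 read 11.77, 11.91 and 11.62 in null and 11.70, 11.75 and 11.72 in wild type. Both were highest in sample 9, and both groups overlapped. Among the remaining core subunits, differences ran from -0.11 for Ndufv2 to 0.07 for Ndufs7, none past the test.

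**Figure D3:**
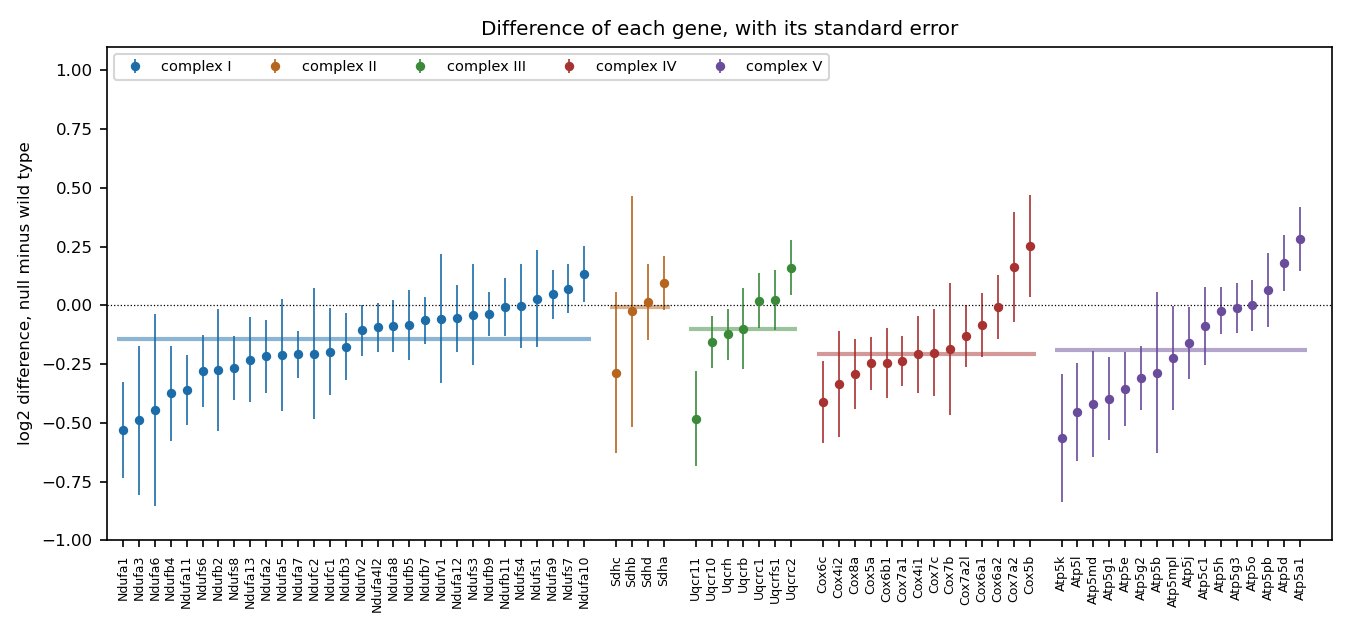
Log2 difference, null minus wild type, of the 71 genes tested (points) with its standard error from the limma fit (bars), ordered within each complex; thick lines are the medians of the complexes. Most points of complexes I, IV and V lie below 0, and the standard errors run from 0.09 to 0.49.

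Complex II was measured by all 4 of its subunits. Sdha, the flavoprotein that oxidises succinate, was even across the arrays at 12.21, 12.23 and 12.13 in null and 12.04, 11.95 and 12.30 in wild type. The difference was 0.10 ± 0.12 (SE). Sdhb, the iron-sulphur subunit, split the arrays across genotype: it read 9.65 in null sample 6 and 9.82 in wild-type sample 7, and 11.31, 11.14, 11.19 and 11.17 in samples 9, 11, 10 and 12. The group means were nearly equal (difference -0.02 ± 0.49), and the standard error was the highest of the 71 genes.

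Sdhc and Sdhd are the membrane anchors that bind ubiquinone. Sdhc was at 10.17, 10.26 and 9.54 in null and 10.01, 9.73 and 11.10 in wild type, with sample 12 alone above the rest. Its difference of -0.29 ± 0.34 turned to 0.12 without that array. Sdhd read 11.14, 11.42 and 10.90 in null and 10.89, 11.29 and 11.23 in wild type, with overlapping groups (0.01 ± 0.16). All 4 genes were above the mean of the other arrays on sample 9, by 0.11 to 0.72.

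In complex III, Uqcr11, a small accessory subunit, had the lowest difference. It read 9.09, 8.30 and 8.94 in null and 9.36, 9.04 and 9.36 in wild type, so that null sample 6 exceeded wild-type sample 10 and the groups overlapped. The log2 difference was -0.48 ± 0.20 (SE; unadjusted p = 0.0447), and -0.24 without sample 9. Uqcr10, also a small accessory subunit, was at 6.88, 6.99 and 6.99 in null and 7.18 and 7.04 in wild-type samples 7 and 10, the flagged spot of sample 12 not being used. These few dim values did not overlap (-0.16 ± 0.11). Uqcrb, which lies next to the ubiquinone site, read 13.70, 13.15 and 13.58 in null and 13.68, 13.74 and 13.31 in wild type. Only sample 9 and sample 12 were low, and the difference of -0.10 ± 0.17 turned to 0.07 without sample 9.

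The core proteins of complex III did not lean down. Uqcrc2 was at 12.92, 13.02 and 12.75 in null and 12.67, 12.90 and 12.64 in wild type (0.16 ± 0.12), overlapping through sample 10. Uqcrc1, the other core protein, and Uqcrfs1, the Rieske iron-sulphur protein, differed by 0.02 ± 0.12 and 0.02 ± 0.13.

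Complex IV was led by Cox6c, a small membrane subunit of the outer shell. Its values were 12.91, 12.34 and 13.00 in null samples 6, 9 and 11 and 13.03, 13.29 and 13.17 in wild-type samples 7, 10 and 12. The groups did not overlap, but samples 11 and 7 nearly met. The log2 difference was -0.41 ± 0.18 (SE; unadjusted p = 0.0464), and -0.21 without sample 9. Cox5a, which binds on the matrix side, read 9.28, 9.13 and 9.46 in null and 9.47, 9.54 and 9.60 in wild type, again separated by a narrow gap (-0.25 ± 0.11, unadjusted p = 0.0585). Cox5b, the zinc-binding subunit, had the highest positive difference of the complex, at 11.34, 11.28 and 11.75 in null and 11.46, 11.44 and 10.72 in wild type. That difference of 0.25 ± 0.22 was 0.0053 without wild-type sample 12, the low value.

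Cox7b and Cox7c, small membrane subunits, had the sample 9 pattern. Cox7c read 12.87, 12.41 and 13.10 in null and 12.82, 13.24 and 12.94 in wild type, and Cox7b 12.47, 11.93 and 12.83 in null and 12.58, 13.09 and 12.12 in wild type. In both genes null sample 11 lay within the wild-type range and sample 9 lay below every other array. The difference of Cox7c was -0.20 ± 0.19 and -0.0082 without sample 9. That of Cox7b was -0.19 ± 0.28, and 0.05 without sample 9.

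Several complex IV subunits exist as a general isoform and one kept for particular tissues. Cox4i1, the general form of subunit 4, was at 12.61, 12.84 and 12.41 in null and 12.76, 12.60 and 13.12 in wild type (-0.21 ± 0.16). Cox4i2, its counterpart of lung and other oxygen-sensing tissue, was at 7.57, 6.99 and 7.31 in null and 7.86, 7.12 and 7.89 in wild type (-0.34 ± 0.23). Both overlapped between genotypes, and sample 9 was 0.14 above the mean of the other arrays for the first and 0.56 below it for the second. The difference of Cox4i1 was -0.06 without sample 12, and that of Cox4i2 ran from -0.59 without sample 10 to -0.18 without sample 9.

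Cox6a1, the general form of subunit 6A, differed by -0.08 ± 0.14, and Cox6a2, the heart and skeletal muscle form, by -0.01 ± 0.14. Cox7a1, the heart and muscle form of subunit 7A, read 6.52, 6.44 and 6.52 in null and 6.88, 6.59 and 6.72 in wild type, close to the background on each array. It was flagged near background on 1 null array. Its groups did not overlap (-0.24 ± 0.11, unadjusted p = 0.0538). Cox7a2, the general form, went the opposite way through a single array, at 11.83, 11.35 and 12.37 in null and 11.50, 11.87 and 11.69 in wild type (0.16 ± 0.23). Without null sample 11 this difference was -0.10. Cox7a2l, which links complexes III and IV into supercomplexes, was at -0.13 ± 0.13.

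Cox6b1, the general form of subunit 6B, read 12.18, 11.61 and 11.99 in null and 12.19, 12.10 and 12.22 in wild type (-0.25 ± 0.15, unadjusted p = 0.134). Cox8a, the general form of subunit 8, was at 12.35 and 11.96 in null samples 6 and 9, with sample 11 left out for its flag, and 12.34, 12.41 and 12.58 in wild type (-0.29 ± 0.15, unadjusted p = 0.0914). In both, sample 9 was the low value and sample 6 lay inside the wild-type range. Without sample 9 the difference of Cox6b1 was -0.09. Ndufa4l2, a relative of the complex IV subunit Ndufa4 that is known to respond to low oxygen, was at -0.09 ± 0.10.

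**Figure D4:**
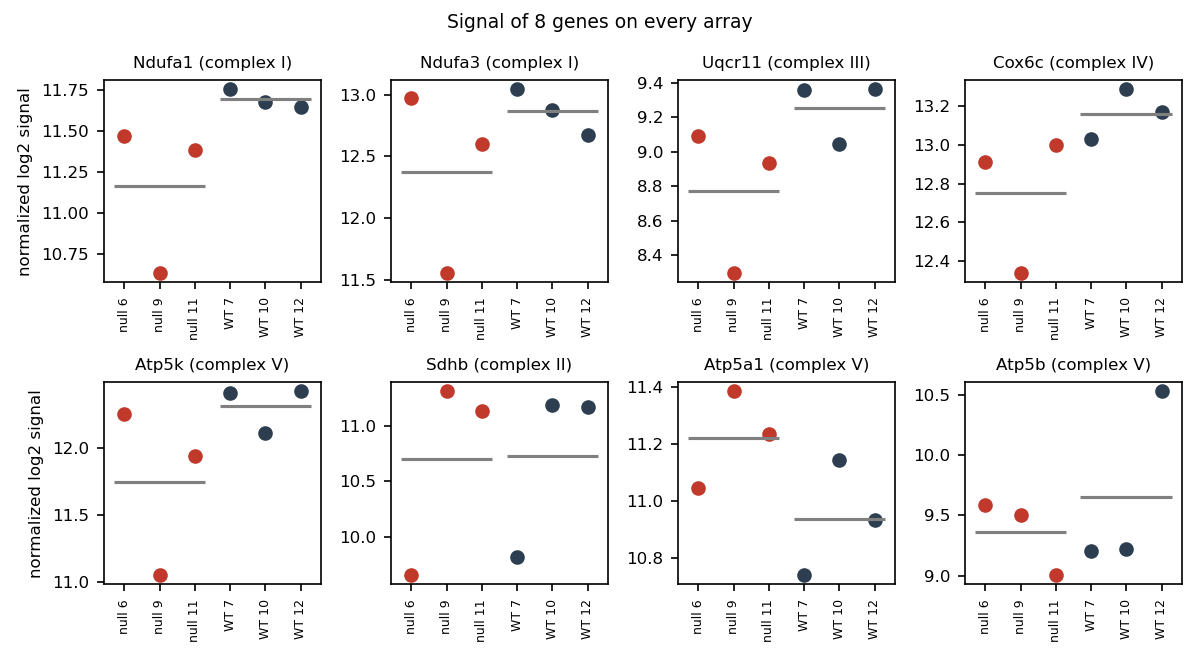
Normalized log2 signal of 8 genes on each array (points, null in red and wild type in dark blue; grey bars, group means; each panel has its own axis, which does not start at 0). Ndufa1, Ndufa3, Uqcr11, Cox6c and Atp5k are lowest in null sample 9, Sdhb is low in null sample 6 and wild-type sample 7, and Atp5b is high in wild-type sample 12.

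In complex V the subunits of the catalytic F1 head did not move together. Atp5a1, the alpha subunit, had the highest positive difference of all 71 genes, with 11.05, 11.38 and 11.23 in null and 10.74, 11.14 and 10.93 in wild type. Null sample 6 lay below wild-type sample 10, and the difference of 0.28 ± 0.14 (SE) had an unadjusted p = 0.0700 and was 0.18 without sample 7. Atp5b, the catalytic beta subunit, read 9.58, 9.50 and 9.00 in null and 9.20, 9.22 and 10.53 in wild type. Only sample 12 was high, and the difference was -0.29 ± 0.34. Atp5d, the delta subunit, was at 0.18 ± 0.12 (unadjusted p = 0.165). Atp5e, the epsilon subunit of the central stalk and the smallest of the head, instead read 12.43, 11.93 and 12.52 in null and 12.57, 12.61 and 12.77 in wild type, without overlap (-0.36 ± 0.16, unadjusted p = 0.0544). Without sample 9 the difference was -0.18.

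The membrane and stalk subunits leaned down, with a median difference of -0.22 and 9 of 11 genes lower. Atp5k, subunit e of the dimer interface, had the lowest difference of all 71 genes. It read 12.25, 11.05 and 11.94 in null and 12.41, 12.11 and 12.42 in wild type, so sample 9 was 1.17 below the mean of the others while sample 6 lay within the wild-type range. The difference of -0.56 ± 0.27 (unadjusted p = 0.0724) was -0.22 without sample 9. Atp5l, subunit g of the same interface, read 8.56, 8.47 and 9.10 in null and 8.96, 9.54 and 9.00 in wild type. Here samples 6 and 9 were both low and sample 11 was not (-0.45 ± 0.21, unadjusted p = 0.0609), and the difference was -0.27 without sample 10. Atp5mpl, a small membrane subunit, read 13.22, 12.49 and 13.25 in null and 13.35, 13.37 and 12.90 in wild type, and its difference of -0.22 ± 0.22 turned to 0.03 without sample 9.

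The 3 genes of subunit c, Atp5g1, Atp5g2 and Atp5g3, encode the same mature protein of the rotating ring behind different leader peptides. Atp5g1 read 9.98, 9.80 and 10.11 in null and 10.39, 10.00 and 10.70 in wild type (-0.40 ± 0.18, unadjusted p = 0.0540), and its difference was -0.23 without sample 12. Atp5g2 read 12.37, 12.09 and 12.44 in null and 12.43, 12.58 and 12.81 in wild type (-0.31 ± 0.14, unadjusted p = 0.0536). In each of them the groups overlapped by a single pair of samples. Atp5g3 was level, at 13.45, 13.61 and 13.62 in null and 13.44, 13.59 and 13.68 in wild type (-0.01 ± 0.11). A second Atp5g1 spot gave -0.12. The probe sequences are not used here, so cross-hybridisation between these related transcripts was not checked.

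Across arrays, the genes covaried only weakly as a set. Covariation is given as Pearson's r between the deviations of each gene's 6 values from its group means. The values share arrays and normalization and leave 4 degrees of freedom, so they are a description. Over all pairs of the 69 genes measured on every array the median r was 0.12, and 28.7% of pairs exceeded 0.5, beside a median of 0.0049 and 21.4% for all genes. Within complexes the medians were 0.19 for I, 0.36 for II, -0.01 for III, 0.12 for IV and 0.07 for V. Pairs from different complexes had a median of 0.09.

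Between complexes the median r was 0.27 for I and III, 0.26 for I and IV, 0.14 for I and V, 0.14 for III and IV, 0.06 for IV and V and 0.02 for III and V. With complex II it was -0.30 for I, -0.24 for III, -0.30 for IV and 0.07 for V. Ndufa11 had the highest mean r with the other genes among complex I subunits (0.31), as had Uqcrb in complex III (0.22), Cox7c in complex IV (0.31) and Atp5e in complex V (0.26). These were genes low on sample 9. At the other end stood Ndufa9 (-0.27), Cox4i1 (-0.25), Sdhc (-0.17), Atp5d (-0.14) and Uqcrc2 (-0.12). Sdhb, the highest in complex II, was at -0.02.

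**Figure D5:**
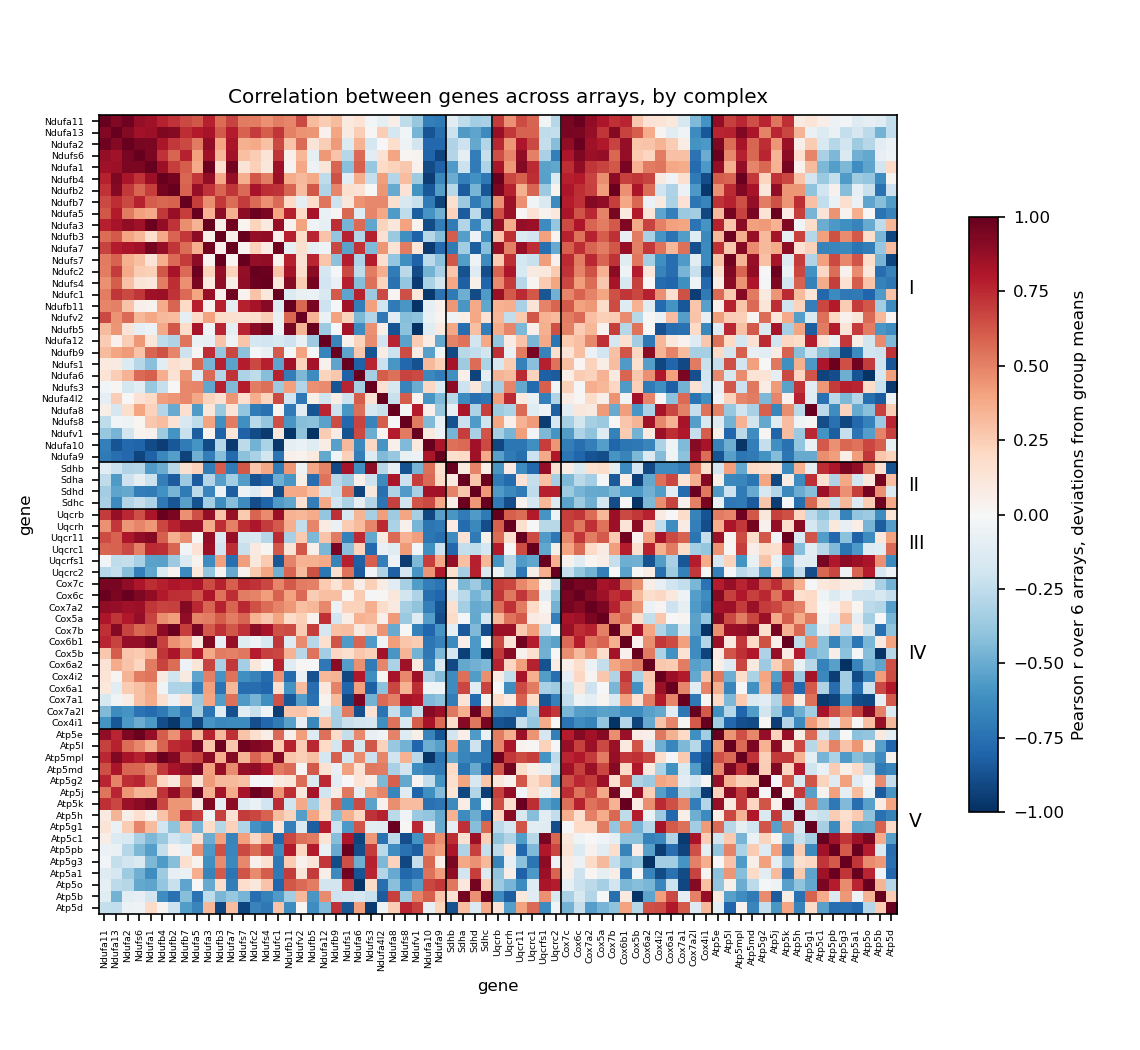
Pearson's r across the 6 arrays, as deviations from group means, between the 69 genes measured on every array, ordered within each complex by mean r with the other genes and framed by complex. Red areas hold many accessory subunits of complexes I, III, IV and V and some core ones, such as Ndufs7 and Uqcrc1. Ndufa9, Ndufa10, Cox4i1, Cox7a2l and most of complex II are blue against many of these.

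The covariation too depended on sample 9. Without that array the median r of the set was 0.03, and that within complex I was 0.03 in place of 0.19. Pairs of an oxidative phosphorylation gene and a cytosolic ribosomal protein gene had a median r of 0.10, and pairs of ribosomal protein genes 0.09, which is close to the value within the set. Scaling the arrays by their medians gave 0.46 for the set and 0.35 for all genes. Cyclic loess gave 0.21 for the set, 0.28 within complex I and 0.0049 for all genes.

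Promoters of these genes hold matches to motifs of nuclear respiratory regulators, and 5 are shown for genes that the results turn on. NRF1 and the ETS factor GABPA are transcription factors known to drive many respiratory chain genes. The RefSeq promoter table for GRCm38.p6, which spans 250 bases before to 50 after each start, held 65 promoters for 60 of the 74 genes. The 120 bases before the start are given 5′ to 3′ on the gene's strand, with the NRF1 motif (GCGCA, any base, GCGC) or the ETS motif CCGGAAG, or its reverse complement, in capitals. Ndufa11 and Atp5k carry an NRF1 match and were low on sample 9, Sdha carries several and was not, and Uqcr11 and Cox6b1 carry an ETS match and were low.
Ndufa11 (chr17:56717642-56717761, plus strand): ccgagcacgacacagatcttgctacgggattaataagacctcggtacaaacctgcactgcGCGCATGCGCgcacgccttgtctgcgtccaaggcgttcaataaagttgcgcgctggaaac
Sdha (chr13:74350241-74350360, minus strand): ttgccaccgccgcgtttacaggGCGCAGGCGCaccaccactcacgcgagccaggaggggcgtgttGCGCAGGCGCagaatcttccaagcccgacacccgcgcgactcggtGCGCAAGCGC
Uqcr11 (chr10:80406822-80406941, minus strand): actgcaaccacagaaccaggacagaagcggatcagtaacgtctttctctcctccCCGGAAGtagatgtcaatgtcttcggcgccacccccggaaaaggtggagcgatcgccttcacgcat
Cox6b1 (chr7:30626115-30626234, minus strand): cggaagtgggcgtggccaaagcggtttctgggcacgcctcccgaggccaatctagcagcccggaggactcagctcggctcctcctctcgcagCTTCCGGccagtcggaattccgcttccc
Atp5k (chr5:108434400-108434519, minus strand): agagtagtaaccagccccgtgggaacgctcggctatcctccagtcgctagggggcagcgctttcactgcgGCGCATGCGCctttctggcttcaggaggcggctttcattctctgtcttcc

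Searched on both strands over the whole window, the NRF1 motif was in 26.2% of the 65 promoters and in 4.60% of all 32851. The ETS motif was in 24.6% and 8.86%, the YY1 motif AAGATGGC in 12.3% and 2.75%, and the ESRRA motif TNAAGGTCA in 4.62% and 1.28%. The CCAAT motif was in 43.1% and 37.4%, and TATAAA in 13.8% and 13.6%. The median GC content was 57.7% for the set and 52.7% for all promoters. The part of GC content in these shares was not tested. Of the 18 genes with a promoter that were at least 0.5 below on sample 9, 5 held the NRF1 motif and 6 the ETS motif. Of the other 42 genes, 11 and 10 did.

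Genes around the complexes gave the setting, from lists chosen for this pathway. None passed the adjusted threshold. Assembly factors, which build the complexes without staying in them, had a median log2 difference of -0.01 over the 31 tested (17 lower), with Cox20 at -0.27 ± 0.13 and Cox11 at 0.20 ± 0.11. Enzymes of the tricarboxylic acid cycle stood at 0.02 over 14 (7 lower), with Dlst at 0.16 ± 0.10. Their mean on sample 9 was 0.14, on the same side as complex II. So were the means of the regulators of mitochondrial genes (0.13) and of outer membrane and carrier proteins (0.11). Assembly factors were at 0.01 there and mitochondrial ribosomal proteins at -0.04. Mitochondrial ribosomal proteins were at 0.01 over 19 (7 lower), where Mrps28 had -0.36 ± 0.12 (unadjusted p = 0.0162). Outer membrane and carrier proteins were at -0.02 over 15 (8 lower).

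Regulators of mitochondrial genes leaned up, at a median of 0.10 with 5 of 17 lower. The null values lay wholly above the wild-type values for 5 of the 17, beside 4.92% of all probes. Nrip1, a co-repressor known to hold down oxidative genes in muscle and fat, read 10.41, 10.86 and 10.53 in null and 10.10, 10.35 and 10.14 in wild type. All null values were above all wild-type values, and the difference was 0.40 ± 0.14 (SE; unadjusted p = 0.0190). Myc was also separated, at 0.25 ± 0.11 (unadjusted p = 0.0571). Of the factors whose motifs are described above, Esrra was separated as well, at 0.14 ± 0.10 (unadjusted p = 0.209). Yy1 was at 0.11 ± 0.18 and Nrf1 at -0.05 ± 0.11, both with overlap, and Gabpa was too dim to be tested. Ppargc1a, the coactivator of Esrra and Nrf1, was near background on every array.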

How the data were processed

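Per the labels' protocols, biotin-labelled cRNA of 6 samples was hybridised to whole-genome mouse CodeLink arrays. CodeLink Expression Analysis 4.1 gave the deposited raw intensity of each spot, per the file headers, and values below 0 show that local background was already subtracted. The deposited normalized intensity divides it, per the file headers, by the median of the array. The value table of the authors holds that intensity times 1 factor per array, with missing or negative spots at 0, as checked here. Raw intensities of 34967 transcript spots were floored at 0, raised by an offset of 50, taken to log2 and quantile normalized, with irregular, contaminated or missing spots then left out. The offset compresses differences of dim spots. Probes above near-background on all arrays of at least 1 group, with at least 2 usable values in each group, were tested: 21243 probes. Differences are null minus wild type, fitted with limma 3.58.1 in R 4.3.3 (lmFit and eBayes, two-sided, Benjamini-Hochberg over all probes at 0.05), and the fit was tested on simulated data. A gene takes its brightest probe. Symbols came from the platform annotation through Entrez numbers to RefSeq GRCm38.p6, where all 74 members matched. The annotation accession equals that of the array file for 50 of their 81 spots. Members and lists were chosen with earlier results of these data known. The grouping by role, the ribosomal protein list, the span and sex-linked genes were added after values were seen.

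Genes were named by rule: the isoform sets, complex II and Fkbp8 always, and in each complex the 3 smallest p, the highest and lowest difference and the highest and lowest mean correlation. Outside the complexes the 2 smallest p of a list could be named. Ndufa3, Ndufa6, Ndufs6, Ndufs8, Uqcr10, Ndufb4, Atp5mpl, Cox7b, Cox7c, Atp5l, Atp5b, Ndufv2, Ndufs7, Uqcrc1, Uqcrfs1, Uqcrq, Cox7b2, Esrra, Nrf1, Yy1, Gabpa, Ppargc1a, Myf5, Acta1, Pax6 and Foxc2 were chosen after their values were seen. Alternatives covered the offset, the normalization, the source of values, the filters, the variance prior, array weights, probes per gene, the members and leaving out each sample. All arrays were scanned in a single session, and the labels name no batch, so batches at other steps could not be tested. The number of arrays limits the precision.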

Additional observations from a re-analysis of the deposited data

How the results depend on the processing

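No oxidative phosphorylation gene passed the adjusted threshold under any alternative run, and the medians of complexes I, IV and V kept their sign in all of them. The count at an unadjusted p under 0.05, 4 as reported, was 2 with a floor of 1 and no offset, 1 with median scaling, 9 with cyclic loess, 1 with the scanner software's normalized intensity, 2 with the authors' value table, 7 without the filter on dim probes and 13 with array weights (12 lower, 1 higher), and 2 to 10 when a sample was left out, lowest without sample 9 or 12. Of all probes, 1.33% were lower at that threshold as reported. The share was 1.56% with a floor of 1 and no offset, 0.471% with median scaling, 1.62% with cyclic loess and 0.81% with the scanner's intensity. It was 0.847% with the authors' table, 1.5% without the dim filter and 1.88% with array weights. Leaving out a sample gave 0.736% (sample 9) to 2.86% (sample 10). The count without overlap, 10 as reported, was 4 with median scaling and 6 with the scanner's intensity, and 11 to 22 when a sample was left out, where fewer samples make overlap rarer. These counts take both directions together, whereas the 10 as reported were all lower. The share of all probes without overlap is not given for these runs, so their counts have no background to be read against. The median correlation of 0.12 was 0.46 with median scaling, 0.21 with cyclic loess, 0.34 with the scanner's intensity and 0.34 with the authors' table, and 0.035 (without sample 9) to 0.19 (without sample 10) when a sample was left out. Leaving out a sample took the median of complex I from -0.23 to -0.06, of complex II from -0.27 to 0.16, of complex III from -0.16 to 0.015 (above 0 without sample 9 or 10), of complex IV from -0.26 to -0.09 and of complex V from -0.23 to -0.084. Some named genes changed sign. Cox6a2 was 0.0050 with median scaling, 0.0042 with loess, 0.0049 with the scanner's intensity and 0.0035 with the authors' table, and -0.11 to 0.10 when a sample was left out. Sdhb was 0.0029 with median scaling, 0.014 with the scanner's intensity, 0.011 with the authors' table and 0.26 with array weights, and -0.48 to 0.50 when a sample was left out. Sdhd was -0.017 with loess and -0.12 to 0.14 without a sample, and Atp5g3 0.018 with array weights and -0.074 to 0.047. The ranges without a sample were -0.026 to 0.12 for Ndufa9, -0.24 to 0.065 for Uqcrb, -0.37 to 0.034 for Atp5mpl, -0.42 to 0.062 for Cox7b, -0.10 to 0.42 for Cox7a2 and -0.56 to 0.12 for Sdhc. The cause of these shifts was not tested. No paired analysis was possible because null and wild-type samples have no number in common.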
